A study of Mus musculus with 6 samples.

Results

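Motile cilia are hair-like projections that beat to move fluid, and in the brain they are carried mainly by ependymal cells, which line the ventricles, including the third ventricle that borders the hypothalamus. Each motile cilium is built around an axoneme, a ring of doublet microtubules on which dynein motors sit in outer and inner arms. The dynein heavy chains pull neighbouring doublets past each other, the radial spokes relay signals from the central microtubule pair to the dynein arms, and tektins run as filaments inside the doublets. The transcription factor FOXJ1 switches on many of these genes in multiciliated cells, together with RFX factors, which bind a DNA element called the X-box.

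The motile cilia genes were those with symbols that begin with Dnah, Dnai, Rsph, Tekt or Cfap followed by a number, or by c and a number, together with Foxj1. Probes were tied to symbols through their transcript accessions, and a probe stayed in only if both arrays of 1 or more genotypes flagged it as well above background. Of 64 such genes in the gene table, 48 had a probe and 43 were tested, among 22863 genes tested in all. The tested members were 24 Cfap genes, 7 Dnah genes, Dnaic1 and Dnaic2, 6 Rsph genes, 3 Tekt genes and Foxj1. In 42 of the 43, the tested probe was well above background on all 6 arrays, and that of Cfap206 was so on 1 of the 2 Trsp-RIPKO arrays. The 5 genes with a probe but no kept one were Cfap61, Cfap97d1, Dnah9, Rsph6a and Tekt3, whose probes were well above background on 0 or 1 of the 6 arrays. The 16 genes with no probe tied to them were Dnah3, Dnah7a, Dnah7b, Dnah7c, Dnah12, Dnah14, Dnah17, Tekt5, Cfap43, Cfap46, Cfap47, Cfap54, Cfap57, Cfap73, Cfap77 and Cfap99, and they are not analysed here.

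Transcripts were measured in the hypothalamus of male mice of the C57BL/6J background aged 16 weeks, on 6 one-colour arrays, 2 for each of 3 genotypes. All 3 genotypes carried the floxed alleles of Trsp, the gene of the selenocysteine tRNA, which cells need to make selenoproteins. The TrspFF control (TrspFlox/Flox) had no Cre, Trsp-RIPKO was TrspFlox/Flox::RIP-Cre, with Cre under a rat insulin promoter, and Trsp-Ins1KO was TrspFlox/Flox::Ins1-Cre, with Cre under Ins1, a mouse insulin gene. The study describes the knockout as raising oxidative stress. The labels do not say in which hypothalamic cells either Cre was active, and none of the 6 samples carried Cre without the floxed alleles. Trsp itself had no probe, so its loss could not be checked on these arrays. Which array belongs to which knockout rests on the scanner files: in the deposited value table the names Trsp-RIPKO and Trsp-Ins1KO stand on each other's arrays, and under the table's names each knockout's result would belong to the other and the difference between the knockouts would turn its sign.

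A level below is a log2 processed signal from which the log2 of its array's 75th percentile was subtracted, so that 0 marks that percentile, which was 1391 to 2136 in signal units over the arrays. Between 68.9% and 72% of probes were well above background and 0 were saturated. The labels do not say that arrays of 1 genotype came from separate animals, so the p-values reflect the spread between the arrays alone, and that spread may be technical. Both TrspFF arrays shared slide 1 and scan 1, and all 4 knockout arrays shared slide 2 and scan 2. In each comparison with TrspFF, slide and genotype therefore cannot be told apart, while the knockouts could be compared within 1 slide. The 2 comparisons with TrspFF also share the same 2 control arrays. In whole tissue, fewer cells of a type and less RNA per cell cannot be told apart either.

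The promoters of the members were read to show what they share in sequence, a feature the choice by name did not use. RefSeq promoter windows (build GRCm38.p6), from 250 bases before to 50 bases after a gene's start, were found for 35 of the 43 members, with 42 windows. The 6 letters of an X-box half-site, GTTGCC on either strand, occurred in 18 of the 42 member windows (42.9%, 16 members) and in 4111 of all 32851 windows (12.5%). The spaced X-box, which is GTTNCC, then 2 bases of any kind, then GGNAAC, on either strand, and which contains half-sites where its N are G or C, occurred in 2 member windows (4.76%) and in 148 of all windows (0.451%). The forkhead letters TGTTTAC, the kind of site that FOXJ1 and its relatives bind, occurred in 1 member window (2.38%) and in 1199 of all windows (3.65%). These matches are descriptions of letters and were not tested as binding sites. Windows of the same gene can overlap, as in Tekt2 and Cfap74, so that the same site can count in more than 1 window. Tekt1 and Tekt2 each also had a window with 0 half-sites, which is not shown. The windows below show the 2 spaced X-boxes, in Cfap298, which takes part in dynein arm assembly, and Cfap20dc, and the half-sites of Tekt1, Tekt2 and Cfap300, whose levels are described further on. Each is written 5′ to 3′ on its gene's strand, which is the minus strand in all 5, with the half-sites and spaced X-boxes in capitals.
Cfap298 promoter, chr16:90934800-90935099, minus strand: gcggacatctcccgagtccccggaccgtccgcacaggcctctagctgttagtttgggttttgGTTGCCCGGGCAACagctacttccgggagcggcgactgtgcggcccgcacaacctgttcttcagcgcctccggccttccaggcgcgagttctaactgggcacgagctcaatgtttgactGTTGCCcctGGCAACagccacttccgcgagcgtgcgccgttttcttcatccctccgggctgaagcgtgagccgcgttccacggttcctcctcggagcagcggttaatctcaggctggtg
Cfap20dc promoter, chr14:8666241-8666540, minus strand: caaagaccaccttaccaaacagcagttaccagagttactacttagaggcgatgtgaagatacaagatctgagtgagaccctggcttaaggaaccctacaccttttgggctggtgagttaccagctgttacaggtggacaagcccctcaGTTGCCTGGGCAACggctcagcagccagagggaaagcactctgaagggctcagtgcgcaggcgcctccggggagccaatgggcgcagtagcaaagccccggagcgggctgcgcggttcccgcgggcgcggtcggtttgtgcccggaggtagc
Tekt2 promoter, chr4:126325597-126325896, minus strand: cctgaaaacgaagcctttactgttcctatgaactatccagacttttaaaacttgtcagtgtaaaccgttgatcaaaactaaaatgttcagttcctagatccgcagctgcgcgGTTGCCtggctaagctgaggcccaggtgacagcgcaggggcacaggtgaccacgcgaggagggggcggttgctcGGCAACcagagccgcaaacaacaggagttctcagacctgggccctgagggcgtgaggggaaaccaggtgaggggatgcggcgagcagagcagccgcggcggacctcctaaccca
Tekt1 promoter, chr11:72361833-72362132, minus strand: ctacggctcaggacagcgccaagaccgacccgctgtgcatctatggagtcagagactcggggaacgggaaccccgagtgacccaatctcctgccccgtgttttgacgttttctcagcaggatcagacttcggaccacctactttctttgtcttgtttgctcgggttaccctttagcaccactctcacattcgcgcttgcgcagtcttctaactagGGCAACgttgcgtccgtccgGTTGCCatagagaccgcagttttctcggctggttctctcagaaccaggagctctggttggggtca
Cfap300 promoter, chr9:8042826-8043125, minus strand: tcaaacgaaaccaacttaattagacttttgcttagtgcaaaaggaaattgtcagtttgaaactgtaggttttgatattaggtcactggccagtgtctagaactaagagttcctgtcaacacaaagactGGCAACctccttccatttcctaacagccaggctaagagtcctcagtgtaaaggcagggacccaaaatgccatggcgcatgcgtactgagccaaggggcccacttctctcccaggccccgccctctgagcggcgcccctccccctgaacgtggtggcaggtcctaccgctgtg

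The spaced X-box of Cfap298 read GTTGCCCGGGCAAC and that of Cfap20dc GTTGCCTGGGCAAC. The 5 genes shown did not share 1 pattern across the arrays: the adjusted p of Cfap300 was smallest in the comparisons of the knockouts with TrspFF, and Tekt1 and Tekt2 were among the members with unequal TrspFF arrays.

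The members differed between arrays of 1 genotype as well as between genotypes. On each array, the deviation of a member is its level minus its own mean over the 6 arrays. The median deviation of the 43 members was 0.16 and -0.23 on the TrspFF arrays (replicates 1 and 2), -0.43 and 0 on the Trsp-RIPKO arrays, and 0.25 and 0.17 on the Trsp-Ins1KO arrays. Trsp-RIPKO replicate 1 was thus the lowest array and Trsp-Ins1KO replicate 1 the highest, while the TrspFF arrays spanned both sides of 0. On Trsp-RIPKO replicate 1, 26 of the 43 members (60.5%, against 12.5% of all genes) had their lowest level of the 6 arrays. On the same array 0 had their highest, against 10.3% of all genes. The Trsp-Ins1KO arrays held 35 and 34 members above their own mean (81.4% and 79.1%, against 55.3% and 54.3% of all genes). Trsp-RIPKO replicate 1 held 5 (11.6%, against 46.3%) and Trsp-RIPKO replicate 2 held 22 (51.2%, against 44.1%).

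**Figure D1:**
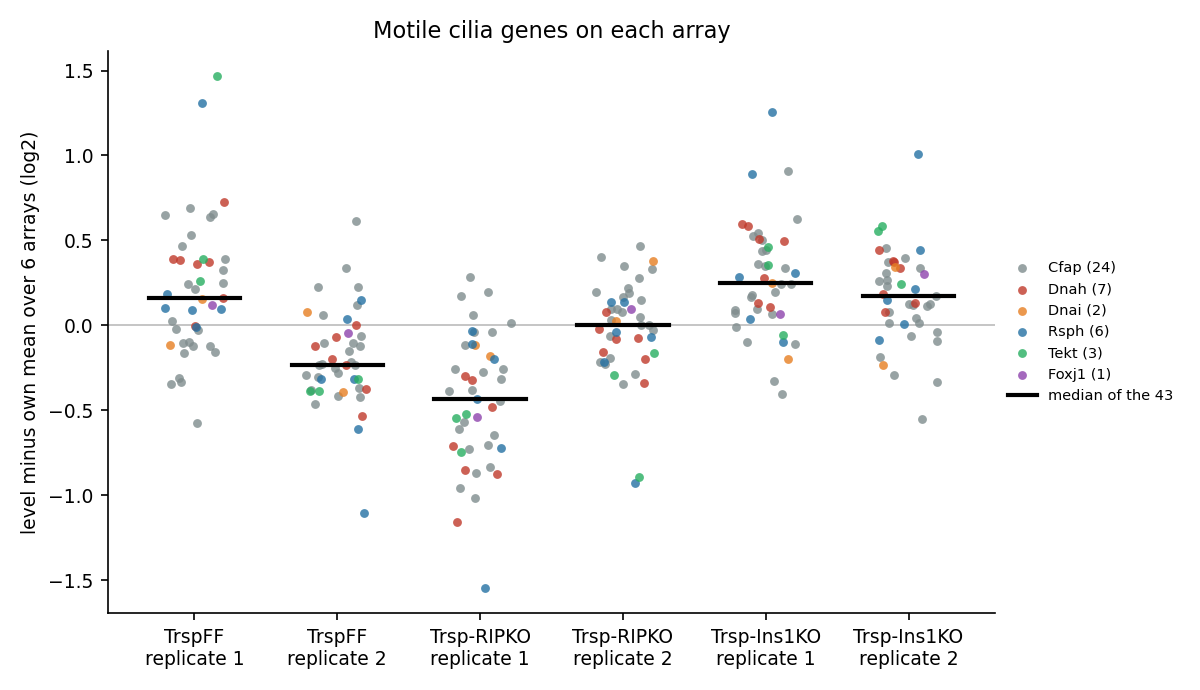
Deviation (log2) of each of the 43 motile cilia genes from its own mean over the 6 arrays, 1 point per gene coloured by family, with the median as a line. Most genes lie low on Trsp-RIPKO replicate 1, where 26 of 43 have their lowest level (60.5%, against 12.5% of all genes). Most lie above their mean on both Trsp-Ins1KO arrays (35 and 34 of 43, against 55.3% and 54.3% of all genes).

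The gap between the arrays of 1 genotype was wider over the members than over all genes in TrspFF and Trsp-RIPKO, and close to it in Trsp-Ins1KO. In TrspFF, replicate 1 was higher than replicate 2 for 34 of 43 members (79.1%, against 55.4% of all genes), with a median absolute gap of 0.44 against 0.16 over all genes. In Trsp-RIPKO, replicate 1 was higher for only 6 of 43 (14%, against 52.9% of all genes), with a median gap of 0.40 against 0.12. In Trsp-Ins1KO, replicate 1 was higher for 27 of 43 (62.8%, against 51.6%), with a median gap of 0.16 against 0.13. The difference between Trsp-RIPKO and TrspFF was smaller than the gap between the TrspFF arrays for 31 of 43 members (72.1%, against 44.5% of all genes), and that between Trsp-Ins1KO and TrspFF for 27 of 43 (62.8%, against 42.6%). Between the knockouts, the difference was smaller than the gap between the Trsp-Ins1KO arrays for 8 of 43 (18.6%, against 41.4%). Members share RNA samples, so their counts on 1 array are not independent of each other.

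None of the 43 members passed the threshold (adjusted p below 0.05, limma, Benjamini-Hochberg over all 22863 genes) in any of the 3 comparisons. Over all genes, 1.66% passed in Trsp-RIPKO against TrspFF, 1.82% in Trsp-Ins1KO against TrspFF and 0.0175% in Trsp-RIPKO against Trsp-Ins1KO. At an unadjusted p below 0.05, 2 members (4.65%), Cfap300 and Cfap410, lay below the cutoff in Trsp-RIPKO against TrspFF, where 24% of all genes did. In Trsp-Ins1KO against TrspFF these were 5 (11.6%, against 26% of all genes): Cfap298, Cfap300, Cfap410, Dnah8 and Dnaic1. Between the knockouts, 12 members (27.9%) lay below it, against 18.4% of all genes. The median difference of the members was -0.21 in Trsp-RIPKO against TrspFF (all genes -0.01), 0.27 in Trsp-Ins1KO against TrspFF (all genes 0.02) and -0.48 in Trsp-RIPKO against Trsp-Ins1KO (all genes -0.05). Without TrspFF replicate 2 the second of these medians was 0.04, and without Trsp-RIPKO replicate 1 the first was 0.01 and the third -0.2.

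By sign, 14 of 43 members (32.6%) had a higher mean in Trsp-RIPKO than in TrspFF, where 48.2% of all genes did. With arrays scaled on their median in place of the 75th percentile, 19 were higher and 24 lower. That scaling also raised the median difference of all genes, so these counts cannot be set against the 48.2%. In Trsp-Ins1KO, 32 of 43 (74.4%) had a higher mean than in TrspFF, against 53.1% of all genes. In Trsp-RIPKO, 36 of 43 had a lower mean than in Trsp-Ins1KO, where 57.9% of all genes did. Both Trsp-RIPKO arrays lay below both Trsp-Ins1KO arrays for 27 members (62.8%, against 35.7% of all genes) and above them for 4 (9.3%, against 22.9%), which were Cfap20dc, Cfap69, Cfap74 and Dnaic2. In the comparisons with TrspFF the shares without overlap were no larger than over all genes: both Trsp-RIPKO arrays lay below both TrspFF arrays for 9 members (20.9%, against 30.2%) and above them for 4 (9.3%, against 28%). Both Trsp-Ins1KO arrays lay above both TrspFF arrays for 13 (30.2%, against 31.7%) and below them for 4 (9.3%, against 26.4%).

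**Figure D2:**
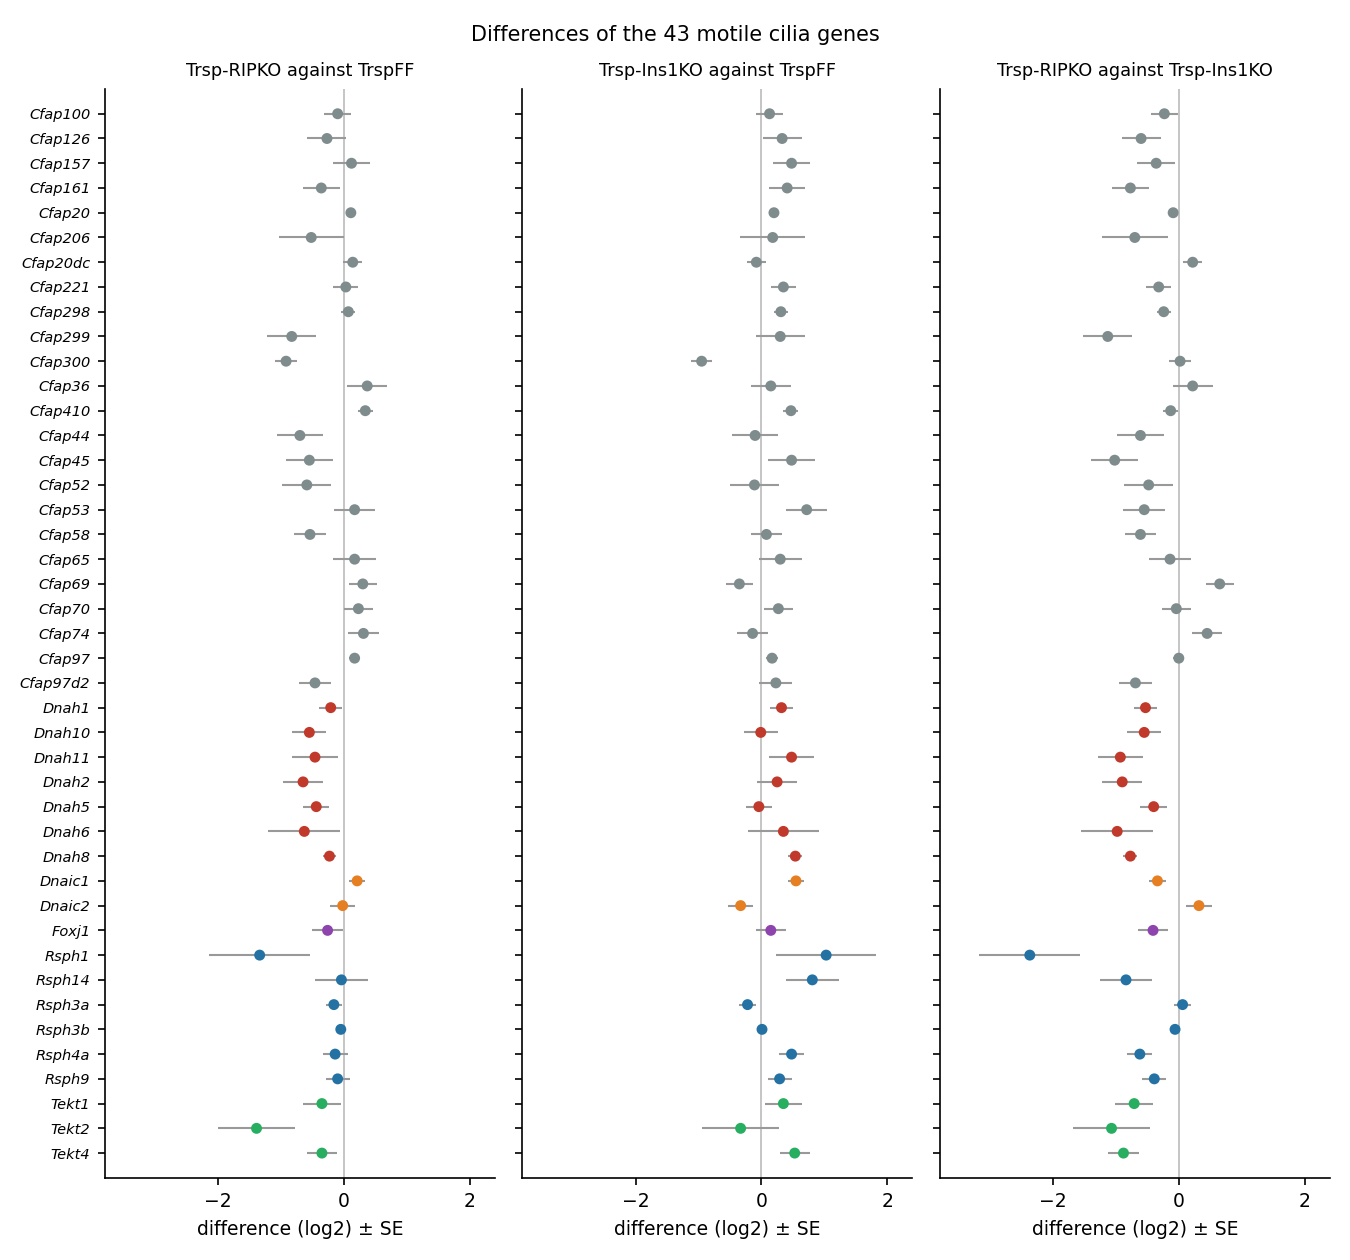
Difference (log2) of each of the 43 members in the 3 comparisons, with the moderated standard error, by family. No member passed the threshold; the differences of Trsp-RIPKO against Trsp-Ins1KO lie mostly below 0 (36 of 43), with a median of -0.48.

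Foxj1 encodes the transcription factor that commits cells to motile cilia. Its level was -0.62 and -0.79 on the TrspFF arrays, -1.28 and -0.65 on the Trsp-RIPKO arrays and -0.68 and -0.44 on the Trsp-Ins1KO arrays. Trsp-RIPKO replicate 1 was low, and the groups overlapped in every comparison. The differences from TrspFF were -0.26 ± 0.24 (SE, 2 arrays per group) in Trsp-RIPKO (adjusted p = 0.526) and 0.15 ± 0.24 in Trsp-Ins1KO (adjusted p = 0.715), by limma. Between the knockouts the difference was -0.41 ± 0.24 (adjusted p = 0.372), and leaving out Trsp-RIPKO replicate 1 made it -0.09, while leaving out the second Trsp-RIPKO array made it -0.72. Without Trsp-RIPKO replicate 1 the difference of Trsp-RIPKO from TrspFF was 0.06.

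The dynein heavy chains are the motor subunits of the arms: Dnah5, Dnah8 and Dnah11 belong to the outer arm, and Dnah1, Dnah2, Dnah6 and Dnah10 to the inner arms. All 7 had a lower mean in Trsp-RIPKO than in TrspFF, with differences from -0.65 to -0.21, and a lower mean in Trsp-RIPKO than in Trsp-Ins1KO, with differences from -0.98 to -0.40. Against TrspFF, Trsp-Ins1KO differed by -0.04 to 0.54, with a median of 0.32. None passed the threshold, and in all 7 TrspFF replicate 1 was higher than TrspFF replicate 2, with a median gap of 0.45.

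Dnah8 had the smallest adjusted p of the heavy chains in the comparison of Trsp-Ins1KO with TrspFF. Its level was -2.98 and -3.18 on the TrspFF arrays, -3.30 and -3.31 on the Trsp-RIPKO arrays and -2.48 and -2.60 on the Trsp-Ins1KO arrays. On this probe, the only kept one of Dnah8, no group overlapped another, with Trsp-Ins1KO highest and Trsp-RIPKO lowest. The difference from TrspFF was 0.54 ± 0.11 in Trsp-Ins1KO (adjusted p = 0.0795) and -0.23 ± 0.11 in Trsp-RIPKO (adjusted p = 0.269). Between the knockouts it was -0.77 ± 0.11 (95% interval -1.04 to -0.49, unadjusted p = 0.000894, limma's adjusted p = 0.263), the smallest unadjusted p of the 43 members in that comparison.

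The level of Dnah1 was -3.69 and -4.09 on the TrspFF arrays, -4.15 and -4.05 on the Trsp-RIPKO arrays and -3.72 and -3.41 on the Trsp-Ins1KO arrays. The knockouts did not overlap each other, with a difference of -0.53 ± 0.18 (adjusted p = 0.263, limma), and each overlapped TrspFF. For Dnah5, in which loss-of-function mutations are a common cause of primary ciliary dyskinesia, levels were -2.83 and -3.28 on the TrspFF arrays, -3.69 and -3.29 on the Trsp-RIPKO arrays and -3.11 and -3.08 on the Trsp-Ins1KO arrays. Trsp-RIPKO lay below TrspFF by a narrow margin between the nearest arrays (difference -0.44 ± 0.21, adjusted p = 0.273, limma), and Trsp-Ins1KO lay inside the TrspFF pair.

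The intermediate chains hold the outer arm to the doublet, and both were measured. The level of Dnaic1 was -0.02 and -0.30 on the TrspFF arrays, -0.01 and 0.12 on the Trsp-RIPKO arrays and 0.35 and 0.44 on the Trsp-Ins1KO arrays. The 3 groups did not overlap, but the margin between TrspFF and Trsp-RIPKO was narrow, with the nearest arrays at -0.02 and -0.01. Both knockouts had a higher mean than TrspFF, by 0.21 ± 0.13 in Trsp-RIPKO (adjusted p = 0.371) and 0.55 ± 0.13 in Trsp-Ins1KO (adjusted p = 0.0976, limma). The level of its partner Dnaic2 was -2.26 and -2.33 on the TrspFF arrays, -2.59 and -2.03 on the Trsp-RIPKO arrays and -2.61 and -2.65 on the Trsp-Ins1KO arrays. Here Trsp-Ins1KO was the lowest group, with a difference of -0.33 ± 0.20 from TrspFF (adjusted p = 0.335, limma). The Trsp-RIPKO arrays lay on both sides of TrspFF, with a difference of -0.02 ± 0.20 (adjusted p = 0.963) that turned positive under 3 other scalings or background corrections, at 0.06 to 0.09.

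Radial spokes were represented by Rsph1, Rsph4a and Rsph9, which encode proteins of the spoke head, by Rsph3a and Rsph3b, which encode proteins of the stalk, and by Rsph14. Rsph1 showed the widest range of all 43 members between the knockouts. Its level was 1.57 and -0.84 on the TrspFF arrays, -1.28 and -0.67 on the Trsp-RIPKO arrays and 1.52 and 1.27 on the Trsp-Ins1KO arrays. TrspFF replicate 1 lay with the Trsp-Ins1KO arrays and TrspFF replicate 2 with the Trsp-RIPKO arrays, so that the TrspFF arrays differed by 2.41 between themselves. A second Rsph1 probe showed the same order of high and low arrays, at -0.68, -3.54, -4.09, -3.34, -0.85 and -1.12 in the same sequence of arrays. The difference between the knockouts was -2.37 ± 0.80 (95% interval -4.45 to -0.28, adjusted p = 0.263, limma) and did not pass the threshold. Against TrspFF the difference was -1.34 ± 0.80 in Trsp-RIPKO (adjusted p = 0.364) and 1.03 ± 0.80 in Trsp-Ins1KO (adjusted p = 0.45). Without TrspFF replicate 2, the difference of Trsp-Ins1KO from TrspFF was -0.17.

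Rsph4a levels were -2.15 and -2.55 on the TrspFF arrays, -2.67 and -2.31 on the Trsp-RIPKO arrays and -1.95 and -1.79 on the Trsp-Ins1KO arrays. On this tested probe both Trsp-Ins1KO arrays were the highest, and the other groups overlapped. Its difference was 0.48 ± 0.20 in Trsp-Ins1KO against TrspFF (adjusted p = 0.212) and -0.62 ± 0.20 between the knockouts (adjusted p = 0.263, limma). A second kept Rsph4a probe gave differences of 0.35 and -0.86. On that probe TrspFF replicate 1 (-2.84) lay above Trsp-Ins1KO replicate 2 (-3.04), so that Trsp-Ins1KO and TrspFF overlapped. Rsph14 levels were -4.17 and -4.87 on the TrspFF arrays, -4.98 and -4.13 on the Trsp-RIPKO arrays and -3.37 and -4.05 on the Trsp-Ins1KO arrays, again with both Trsp-Ins1KO arrays highest. Its difference from TrspFF in Trsp-Ins1KO was 0.81 ± 0.42 (adjusted p = 0.29, limma). The level of Rsph3a was -1.57 and -1.53 on the TrspFF arrays, -1.87 and -1.53 on the Trsp-RIPKO arrays and -1.77 and -1.76 on the Trsp-Ins1KO arrays. Rsph3a and Rsph3b are near-identical copies, so that their probes may not separate them, and neither differed from TrspFF by more than 0.22 in size (adjusted p = 0.346, the smallest of the pair's comparisons with TrspFF). The Rsph3a probes disagreed in sign. The tested probe gave -0.16 in Trsp-RIPKO and -0.22 in Trsp-Ins1KO against TrspFF, and a second kept probe gave 0.16 and 0.06.

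Tektins are filament proteins of the doublet wall, and Tekt1, Tekt2 and Tekt4 were measured. The level of Tekt2, whose promoter window shown above held 2 half-sites, was -0.98 and -2.77 on the TrspFF arrays, -3.20 and -3.34 on the Trsp-RIPKO arrays and -2.51 and -1.90 on the Trsp-Ins1KO arrays. Both Trsp-RIPKO arrays were the lowest, but the TrspFF arrays differed by 1.78 between themselves, more than the difference of -1.39 ± 0.61 between Trsp-RIPKO and TrspFF (adjusted p = 0.248, limma). It was -0.5 without TrspFF replicate 1 and -2.29 without TrspFF replicate 2. Tekt4 levels were -0.73 and -1.38 on the TrspFF arrays, -1.52 and -1.29 on the Trsp-RIPKO arrays and -0.64 and -0.41 on the Trsp-Ins1KO arrays. Both Trsp-Ins1KO arrays were the highest, and the difference between the knockouts was -0.88 ± 0.24 (adjusted p = 0.263, limma). Tekt1 levels were 0.29 and -0.49 on the TrspFF arrays, -0.64 and -0.26 on the Trsp-RIPKO arrays and 0.36 and 0.15 on the Trsp-Ins1KO arrays. The knockouts did not overlap (difference -0.71 ± 0.30, adjusted p = 0.281, limma), and the TrspFF arrays spanned most of the range of both.

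The Cfap symbol covers cilia and flagella associated proteins of many kinds, so these 24 genes share a name more than a place in the axoneme. Their median differences were 0.05 in Trsp-RIPKO against TrspFF, 0.21 in Trsp-Ins1KO against TrspFF and -0.28 between the knockouts. Cfap300, which takes part in the assembly of dynein arms before they enter the cilium, had the smallest adjusted p of the 43 members in both comparisons with TrspFF. Its level was 5.49 and 5.46 on the TrspFF arrays, 4.59 and 4.51 on the Trsp-RIPKO arrays and 4.75 and 4.30 on the Trsp-Ins1KO arrays. All 4 knockout arrays lay below both TrspFF arrays, and the knockouts overlapped. The difference from TrspFF was -0.92 ± 0.17 in Trsp-RIPKO (95% interval -1.36 to -0.49, adjusted p = 0.0753) and -0.95 ± 0.17 in Trsp-Ins1KO (95% interval -1.38 to -0.52, adjusted p = 0.0703), by limma. Between the knockouts the difference was 0.02 ± 0.17 (adjusted p = 0.94). With another background correction or variance model, Cfap300 was lower at adjusted p = 0.0456 and 0.0389 in Trsp-RIPKO and at 0.0435 and 0.0337 in Trsp-Ins1KO, and slide and genotype cannot be told apart in these comparisons.

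Cfap410 levels were 0.47 and 0.25 on the TrspFF arrays, 0.69 and 0.71 on the Trsp-RIPKO arrays and 0.72 and 0.94 on the Trsp-Ins1KO arrays. All 4 knockout arrays lay above both TrspFF arrays, by 0.34 ± 0.12 in Trsp-RIPKO (adjusted p = 0.194) and 0.47 ± 0.12 in Trsp-Ins1KO (adjusted p = 0.114, limma). Its second kept probe gave differences of 0 and 0.27, so that the probes disagreed for Trsp-RIPKO.

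Cfap299 and Cfap45, the latter a protein of the inside of the doublet, had the largest differences between the knockouts among the Cfap genes. Cfap299 levels were -1.86 and -2.81 on the TrspFF arrays, -3.52 and -2.79 on the Trsp-RIPKO arrays and -2.01 and -2.05 on the Trsp-Ins1KO arrays. Trsp-RIPKO replicate 1 was the lowest array, and the knockouts did not overlap (difference -1.13 ± 0.39, adjusted p = 0.264, limma). Cfap45 levels were 0.14 and -0.76 on the TrspFF arrays, -1.17 and -0.55 on the Trsp-RIPKO arrays and 0.29 and 0.04 on the Trsp-Ins1KO arrays. Trsp-RIPKO replicate 1 was again the lowest array, and the knockouts did not overlap (difference -1.02 ± 0.37, adjusted p = 0.264, limma). TrspFF replicate 1 lay between the Trsp-Ins1KO arrays and TrspFF replicate 2 between the Trsp-RIPKO arrays.

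Cfap69, a protein of the central pair, ran the other way. Its level was -0.87 and -0.22 on the TrspFF arrays, -0.28 and -0.22 on the Trsp-RIPKO arrays and -0.89 and -0.90 on the Trsp-Ins1KO arrays. On this tested probe it was low where Rsph1 was high and high where Rsph1 was low, on all 6 arrays. Trsp-RIPKO lay above Trsp-Ins1KO by 0.65 ± 0.22 (adjusted p = 0.263, limma), and a second probe gave 0.56. On that second probe Trsp-RIPKO replicate 2 (-2.33) lay below TrspFF replicate 1 (-2.22), so that it did not mirror Rsph1 on every array. The probes also disagreed in sign for Trsp-RIPKO against TrspFF, at 0.3 on the tested probe and -0.15 on the second. Cfap53 levels were -4.28 and -4.18 on the TrspFF arrays, -4.19 and -3.93 on the Trsp-RIPKO arrays and -3.03 and -3.99 on the Trsp-Ins1KO arrays. Trsp-Ins1KO replicate 1 stood above the other 5 arrays, and the difference from TrspFF was 0.72 ± 0.33 (adjusted p = 0.245, limma).

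**Figure D3:**
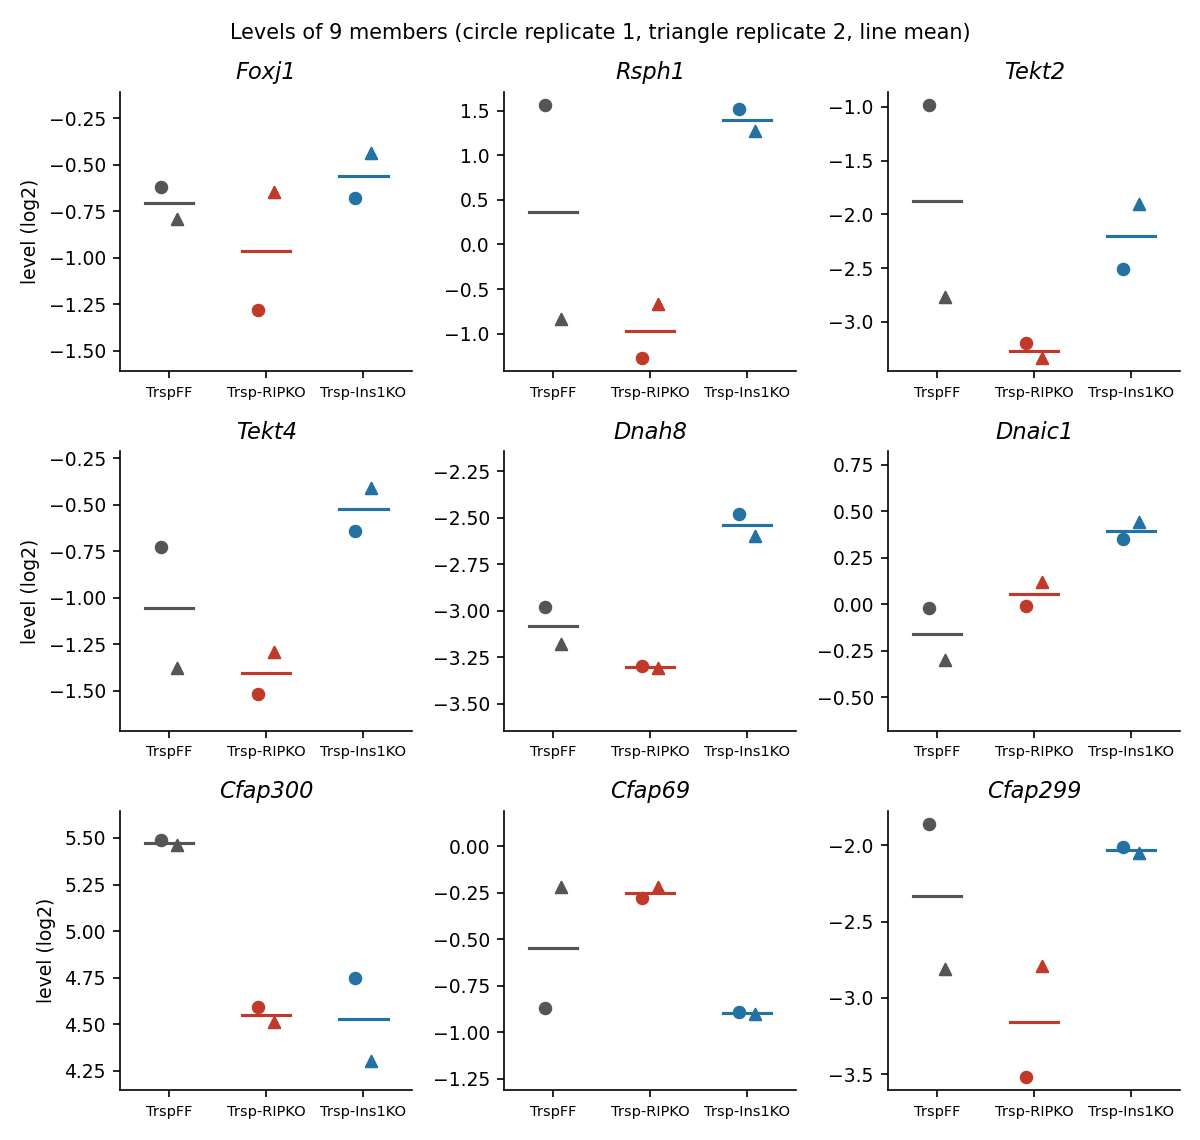
Level (log2 processed signal minus the 75th percentile of the array) of named members on each of the 6 arrays, with the mean of each group as a bar. For Rsph1 the 2 TrspFF arrays differ by 2.41, while for Cfap300 all 4 knockout arrays (4.30 to 4.75) lie below both TrspFF arrays (5.46 and 5.49).

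Other genes of the motile axoneme followed the members. Of 55 further genes of the axoneme and dynein arms, 48 were tested, and their median difference was -0.20 in Trsp-RIPKO against TrspFF, 0.18 in Trsp-Ins1KO against TrspFF and -0.37 between the knockouts. On Trsp-RIPKO replicate 1, 31 of the 48 had their lowest level (64.6%, against 12.5% of all genes). One of the 48 fell in Trsp-RIPKO (2.08%, against 1.56% of all genes that fell) and 2 fell in Trsp-Ins1KO against TrspFF (4.17%, against 1.58%); 0 rose in either, and 0 passed between the knockouts.

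Dnal1, the light chain bound to an outer arm heavy chain, was 1 of these. Its level was -1.64 and -1.64 on the TrspFF arrays, -2.93 and -2.92 on the Trsp-RIPKO arrays and -2.87 and -2.91 on the Trsp-Ins1KO arrays. All 4 knockout arrays lay below TrspFF, and Dnal1 fell by 1.28 (SE 0.08, adjusted p = 0.017) in Trsp-RIPKO and by 1.24 (adjusted p = 0.0154, limma) in Trsp-Ins1KO. The fitted difference stayed between -1.29 and -1.22 when any 1 array was left out. The adjusted p did not: in Trsp-RIPKO it passed the threshold only without TrspFF replicate 2 (0.0342), and without each of the other 5 arrays it was 0.0603 to 0.161. In Trsp-Ins1KO it passed only without TrspFF replicate 1 (0.0351), and otherwise was 0.0676 to 0.0898. Tcte1, a protein of the complex that regulates the inner arms, was at -2.49 and -2.40 on the TrspFF arrays, -2.94 and -2.98 on the Trsp-RIPKO arrays and -3.22 and -3.06 on the Trsp-Ins1KO arrays. It fell by 0.69 (SE 0.10, adjusted p = 0.0484, limma) in Trsp-Ins1KO and lost the call without any 1 array (adjusted p 0.0731 to 0.158). In Trsp-RIPKO its difference was -0.52 (adjusted p = 0.0777). For both genes slide and genotype cannot be told apart.

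Of 19 genes for the assembly and docking of dynein arms, 13 were tested, and 0 passed the threshold in any comparison; at an unadjusted p below 0.05 there were 4, 1 and 1 in the order used above (30.8%, 7.69% and 7.69%, against 24%, 26% and 18.4% of all genes). Lrrc6, an assembly factor, came nearest, with levels of -4.05 and -4.02 on the TrspFF arrays, -3.74 and -3.70 on the Trsp-RIPKO arrays and -3.43 and -3.50 on the Trsp-Ins1KO arrays. The groups did not overlap, and its difference from TrspFF was 0.57 in Trsp-Ins1KO (adjusted p = 0.0516, limma) and 0.31 in Trsp-RIPKO (adjusted p = 0.123). Of 21 regulators of the multiciliated programme, 19 were tested and 0 passed, with 4, 3 and 4 at an unadjusted p below 0.05 (21.1%, 15.8% and 21.1%). The median differences were -0.25, 0.15 and -0.26 for the assembly and docking genes and -0.02, 0.14 and 0.12 for the regulators. Those of the members were -0.21, 0.27 and -0.48, which the regulators did not follow between the knockouts. The median deviation of the regulators stayed between -0.11 and 0.06 on the 6 arrays. E2f4, a cofactor of the multiciliated programme that also acts in the cell cycle, was at -3.98 and -3.88 on the TrspFF arrays, -4.65 and -4.42 on the Trsp-RIPKO arrays and -4.95 and -4.70 on the Trsp-Ins1KO arrays. All 4 knockout arrays lay below TrspFF (differences -0.61 and -0.90, adjusted p = 0.102 and 0.0588, limma).

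Genes for intraflagellar transport and the primary cilium, which most cells carry, did not show the pattern of the members. All 54 listed genes were tested, and their median deviation stayed between -0.05 and 0.06 on the 6 arrays. Their median differences were 0.02, 0.08 and -0.06 in the 3 comparisons, in the order used above. One of the 54 fell in each comparison with TrspFF (1.85%, a share close to the 1.56% and 1.58% of all genes that fell). This was Wdr19, a subunit of the complex that carries cargo back from the tip, whose level was -5.19 and -5.35 on the TrspFF arrays, -6.71 and -6.91 on the Trsp-RIPKO arrays and -6.75 and -6.95 on the Trsp-Ins1KO arrays. It was well above background on both TrspFF arrays and on 0 of the 4 knockout arrays, so its size is a bound. TrspFF was at least 2.29-fold higher than Trsp-RIPKO (adjusted p = 0.0243, limma) and at least 2.06-fold higher than Trsp-Ins1KO (adjusted p = 0.0188), where each dim array took the lowest signal flagged as above background there, or the probe's own where higher. With normexp background correction and an offset of 50 its fitted differences were -0.38 and -0.4 (adjusted p = 0.184 and 0.141), and leaving out 1 array at a time kept the call only without TrspFF replicate 2 in Trsp-RIPKO (0.0425) and only without TrspFF replicate 1 in Trsp-Ins1KO (0.0447).

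**Figure D4:**
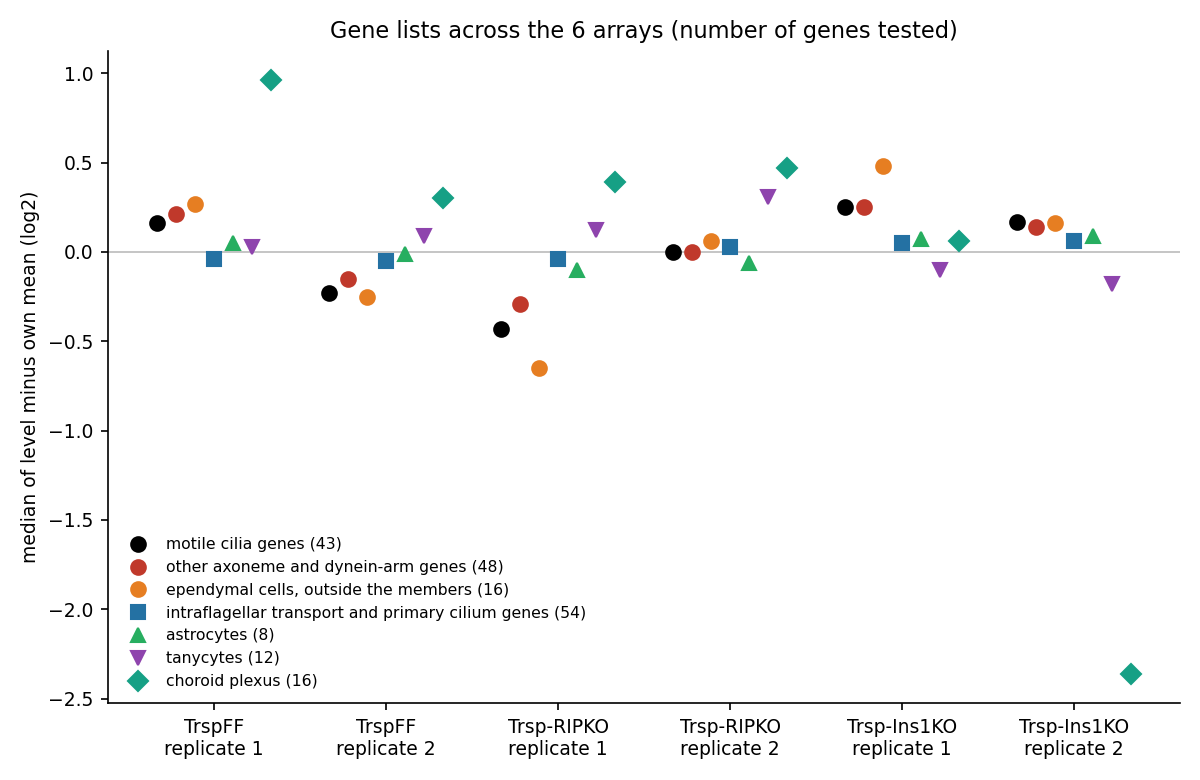
Median deviation (log2) of each gene list from its genes' own means on each of the 6 arrays, with the number of genes tested in brackets. The motile cilia genes, the other axoneme genes and the ependymal markers are lowest together on Trsp-RIPKO replicate 1 (-0.43, -0.29 and -0.65), while the choroid plexus genes are lowest on Trsp-Ins1KO replicate 2 (-2.36).

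Markers of the cell types a hypothalamic sample could hold were read beside the members. All 16 ependymal markers outside the members were tested, 0 passed the threshold in any comparison, and at an unadjusted p below 0.05 there were 0, 1 and 2 (0%, 6.25% and 12.5%, against 24%, 26% and 18.4% of all genes). Their median deviation was 0.27 and -0.25 on the TrspFF arrays, -0.65 and 0.06 on the Trsp-RIPKO arrays and 0.48 and 0.16 on the Trsp-Ins1KO arrays, the same order of arrays as the members except that TrspFF replicate 1 stood above Trsp-Ins1KO replicate 2. Their mean level ranged from -1.12 to -0.57 in TrspFF, from -1.57 to -0.86 in Trsp-RIPKO and from -0.71 to -0.46 in Trsp-Ins1KO. Replicate 1 was higher than replicate 2 for 15 of the 16 in TrspFF, for 0 in Trsp-RIPKO and for 15 in Trsp-Ins1KO. Tmem212, a marker of ependymal cells, was at -0.02 and -0.80 on the TrspFF arrays, -1.91 and -0.66 on the Trsp-RIPKO arrays and 0.09 and -0.21 on the Trsp-Ins1KO arrays. Its lowest array was again Trsp-RIPKO replicate 1, and the TrspFF pair reached from near the one knockout to near the other. Of Fam183b, a gene of ciliated cells, levels were 1.92 and 0.91, then 0.92 and 1.05, then 2.34 and 2.00 in the same order, and the difference between the knockouts was -1.18 (adjusted p = 0.263, limma). Riiad1, the other marker at an unadjusted p below 0.05 between the knockouts, differed the other way, by 0.53 (adjusted p = 0.263). Tppp3 was the marker below that cutoff in Trsp-Ins1KO against TrspFF, where it was higher by 0.58 (adjusted p = 0.0963, limma). Tppp3 was also higher in Trsp-RIPKO than in TrspFF, by 0.3 (adjusted p = 0.252, limma). In that comparison 3 of the 16 markers had a higher mean and 13 a lower one. On each array 15 or 16 of the 16 markers were well above background, but a marker was tested only if it was so on both arrays of 1 genotype, and the members' signal was not traced to a cell type. The part of the markers in the differences of the members was not tested.

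The choroid plexus, whose epithelium is continuous with the ependyma, gave a different order of arrays. Its 16 markers had mean levels of 0.54 and -0.03 on the TrspFF arrays, -0.10 and 0.15 on the Trsp-RIPKO arrays and -0.30 and -2.57 on the Trsp-Ins1KO arrays. Ttr, its most typical transcript, was at 6.31 and 5.56 on the TrspFF arrays, 5.64 and 5.89 on the Trsp-RIPKO arrays and 5.39 and -0.95 on the Trsp-Ins1KO arrays. Trsp-Ins1KO replicate 2 was by far the lowest array, and Trsp-Ins1KO replicate 1 was the next lowest, both in mean level and for Ttr. The members were mostly above their means on both Trsp-Ins1KO arrays (median deviation 0.25 on replicate 1 and 0.17 on replicate 2). None of the 16 passed the threshold, with 0, 5 and 4 at an unadjusted p below 0.05 (0%, 31.2% and 25%), and their part in the results was not tested. Of 13 tanycyte genes, which mark the ventricular cells of the hypothalamus that lack beating tufts, 12 were tested, with median deviations of 0.03 and 0.09 on the TrspFF arrays, 0.12 and 0.31 on the Trsp-RIPKO arrays and -0.10 and -0.18 on the Trsp-Ins1KO arrays. Their median difference between the knockouts was 0.41, where that of the members was -0.48. Of the 12, 9 had a higher mean in Trsp-RIPKO than in Trsp-Ins1KO, while Gpr50 (-0.90, adjusted p = 0.263, limma), Rax (-0.45) and Col23a1 (-0.32) had a lower one, as most members did (the last pair were named after their values were seen). The 8 astrocyte genes differed by a median of -0.14, 0.05 and -0.21 in the 3 comparisons, and the 9 tested of 10 genes of hypothalamic neurons by 0.18, 0.64 and -0.64. None of the genes of these 3 lists passed the threshold; the counts that follow are at an unadjusted p below 0.05, where 24%, 26% and 18.4% of all genes lay. There were 2, 4 and 7 tanycyte genes (16.7%, 33.3% and 58.3%). There were 0, 0 and 2 astrocyte genes (0%, 0% and 25%) and 3, 6 and 4 neuron genes (33.3%, 66.7% and 44.4%).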

How the data were processed

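Total RNA of hypothalamus was labelled with Cy3 and hybridised to Agilent arrays, 1 per sample, and scans were read with Agilent Feature Extraction 10.7.3.1, per the file headers. The deposited scanner files hold each spot's intensity after background subtraction, with quality flags. The deposited value table holds log2 values centred on each probe's median; the scaling of arrays there by the authors is not stated in the sources used here. Its columns were matched to the scanner files by their values (r from 0.9999975 to 0.9999985), which showed the knockout names exchanged (r = -0.225 and -0.202 with the array of the same name); groups follow the scanner files.

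Unflagged spots of a probe were averaged: 43020 spots gave 39429 probes, and 118 without an unflagged spot on every array were dropped. Of these, 28065 were flagged well above background on each array of 1 or more genotypes. Symbols came from RefSeq accessions (26055 probes, 66.1%, of those on the array), the brightest kept probe stood for a gene, and 10 members had several. R 4.3.3 with limma 3.58.1 (lmFit and eBayes over the 6 arrays, no covariate) compared the genotypes, with residual and prior degrees of freedom of 4.87 and a median SE of 0.127. With 2 arrays per group, the number of arrays limits the precision. The fit was tested on simulated data. Replicate numbers were not taken as pairs. The members and gene lists were chosen with earlier results of these data known, and older symbols in the lists were replaced by those of the gene table. Members named with values were Foxj1, the 4 with the largest differences and the 2 of each family with the smallest p in each comparison; from the lists, genes past the threshold, some with the smallest p, and markers. Other background corrections, scalings, filters, variance models and left-out arrays were tried.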

Additional observations from a re-analysis of the deposited data

How the results depend on the processing

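Of the 43 members, 1 (Cfap300) passed the threshold, as lower, under 2 of the alternatives tried, and 0 under the others. These were normexp (offset 50) and a trended, robust variance model, in Trsp-RIPKO against TrspFF (adjusted p = 0.0456 and 0.0389) and in Trsp-Ins1KO against TrspFF (0.0435 and 0.0337). With 1 array left out at a time, 0 members passed in each comparison. The median difference of the members then ran from -0.35 (without TrspFF replicate 2) to 0.01 (without Trsp-RIPKO replicate 1) in Trsp-RIPKO against TrspFF. It ran from 0.04 (without TrspFF replicate 2) to 0.5 (without TrspFF replicate 1) in Trsp-Ins1KO against TrspFF, and from -0.68 (without Trsp-RIPKO replicate 2) to -0.2 (without Trsp-RIPKO replicate 1) between the knockouts. With normexp these medians were -0.07, 0.18 and -0.25, with quantile normalization -0.13, 0.29 and -0.47, and with median scaling, which moved the median of all genes to 0.09, 0.11 and -0.03, they were -0.1, 0.36 and -0.45.

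Of single members, Dnaic2 in Trsp-RIPKO against TrspFF turned sign with normexp (0.06), quantile normalization (0.06) and median scaling (0.09), and without TrspFF replicate 1 (0.02). Leaving out the 2 Trsp-RIPKO arrays in turn moved that comparison from -0.3 to 0.26 for Dnaic2, from -0.58 to 0.06 for Foxj1 and from -0.33 to 0.01 for Rsph3a, the positive value being that without replicate 1. Leaving out the 2 TrspFF arrays in turn moved Trsp-Ins1KO against TrspFF from -0.17 to 2.24 for Rsph1 and from -0.04 to 0.74 for Tekt1, the negative value being that without replicate 2. The cause was not tested.

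Replicate numbers did not pair the arrays: the correlations between genotypes of replicate 1 minus replicate 2 over all genes were -0.03, 0.09 and -0.02. With a replicate block, 0 genes passed in all 3 comparisons, the smallest adjusted p of a member was 0.097, 0.11 and 0.264, and the medians were -0.21, 0.27 and -0.48. Slide could not enter the comparisons with TrspFF as a block. Both knockouts shared a slide, so no slide term was fitted, and none could have changed the comparison between the knockouts. Fitted on the knockout arrays alone, that comparison called 318 genes in place of 4, and the smallest adjusted p of a member was 0.0517. The calls of Dnal1, Tcte1 and Wdr19, whose alternatives were added after their calls were seen, were lost in every comparison without a filter on dim probes, with the replicate block and with only the compared groups in the fit.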
